A study of Arabidopsis thaliana with 16 samples.

Results

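Intergenic WRKY binding regions are stretches of the Arabidopsis thaliana genome that an antiserum against all WRKY proteins enriched, with at least 1 peak that the authors' annotation placed outside genes, promoters and transcript ends. They were chosen as every peak whose annotation class in the authors' peak lists began with "Intergenic", merged across the 8 lists where peaks shared at least 1 bp. This gave 668 regions, built from 2224 of the 14333 peaks, against 3886 regions when all peaks were merged. Of these, 73 also overlapped a peak of another class, a promoter peak for 49 and a transcript-end peak for 26. The annotation alone chose them from the lists, so score percentiles and calls across libraries were not used in the choice. Width was not used either, but it can bear on the class, since the authors' distance runs to the middle of the peak. For example, a site 1195 bp upstream of WRKY15 was intergenic in replicate 2 and lay within wider promoter peaks in replicate 1. Every peak had first to pass the threshold of its list.

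The libraries came from 12-day-old seedlings of Col-0 wild type (WT) and of a mutant in the Col-0 background that lacks WRKY18, WRKY40 and WRKY33 together (wrky18 wrky40 wrky33, here the triple mutant). Each genotype was taken untreated at 0 h or after 2 h in medium with 1 µM flg22, which gave 4 groups of 2 biological replicates. Below, treated and untreated stand for these states, and pairs of values are in replicate order. There was no group kept for 2 h without flg22, so the peptide, the change of medium and the time cannot be told apart. The serum recognises the whole family, so other WRKY proteins can hold a site in the mutant. A list of bound DNA gives no transcript levels, and loss of the 3 proteins could not be checked from it.

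WRKY proteins form a plant family of transcription factors. They bind the W-box, a short DNA element centred on the letters TGAC, and many act in immunity. The peptide flg22 is a fragment of bacterial flagellin that the receptor kinase FLS2 detects at the cell surface, which sets off a rapid wave of transcription of defence genes. WRKY18, WRKY40 and WRKY33 are members of the family that pathogen signals induce, and WRKY genes are themselves known targets of WRKY proteins. No genome sequence was used here, so the regions are given by position, nearest gene and score, and W-boxes within them were not analysed here.

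Most of these regions lay upstream of the nearest transcription start site (TSS) and not far from it. By the sign of the authors' distance from the TSS to the middle of the peak, 590 regions (88.3%) were upstream and 78 were downstream, that is, past the end of the nearest gene. The median distance was 1700 bp upstream and 3072.5 bp downstream. The farthest peaks lay 8957 bp upstream and 8290 bp downstream. The authors' promoter class ended at 1000 bp, so the nearest intergenic peak was 1001 bp upstream. The 173 intergenic peaks between 1001 and 1100 bp had a median score percentile of 48.6, and the 358 promoter peaks between 901 and 1000 bp had one of 57.1. A score percentile is the rank of a peak's own ChIP score within its list, as given by the authors, with 100 for the top peak. The lists held 1372 to 1720 peaks at 0 h and 1992 to 2213 at 2 h, so a peak of the same rank has a higher percentile in a longer list. Percentiles set side by side below describe ranks within lists and show no change in binding between libraries.

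**Figure D1:**
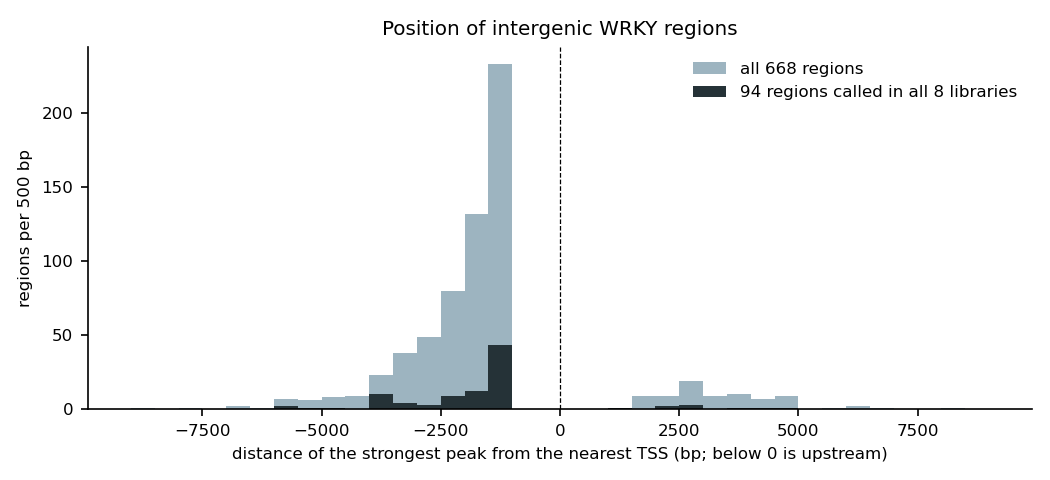
Number of intergenic regions per 500 bp (vertical axis) by distance of the strongest peak from the nearest TSS in bp (horizontal axis, below 0 upstream). Pale bars are all 668 regions and dark bars the 94 called in all 8 libraries. Of the 590 upstream regions, 233 lie 1000 to 1500 bp from the TSS, and the gap around 0 is set by the annotation classes.

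The regions were assigned to 606 nearest genes, and 56 of those genes had at least 2 regions. Protein-coding genes were nearest to 619 regions, pseudogenes to 18, transcribed pseudogenes to 8, tRNA genes to 11, long non-coding RNA genes to 3 and microRNA genes to 3. The share of the regions on chromosome 1 was 27.2%, against 27.4% of all regions, and on chromosome 2 it was 16.3% against 14.6%. On chromosomes 3, 4 and 5 the shares were 17.1%, 17.4% and 22.0%, against 18.8%, 16.1% and 23.1%. Thus the regions were spread over the 5 chromosomes much as all binding was. A nearest gene is an assignment by distance, and it does not show which gene a site acts on.

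Across libraries, a region was counted as called where any peak of that library shared at least 1 bp with it. All 8 libraries called 94 regions (14.1%), beside 12.8% of all merged regions, 13.5% of promoter regions and 9.51% of regions within genes. Just 1 library called 188 regions (28.1%), beside 26.3% of all merged regions, 23.4% of promoter, 28.5% of transcript-end and 29.9% of gene-body regions. Regions called more widely also had higher scores. The median of the mean percentile was 20.9 for regions of 1 library, 38.6 for those of 4 and 66.2 for those of all 8. In the 74 regions with an intergenic peak in all 8 libraries, the peak maxima lay within a median of 137 bp of each other.

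**Figure D2:**
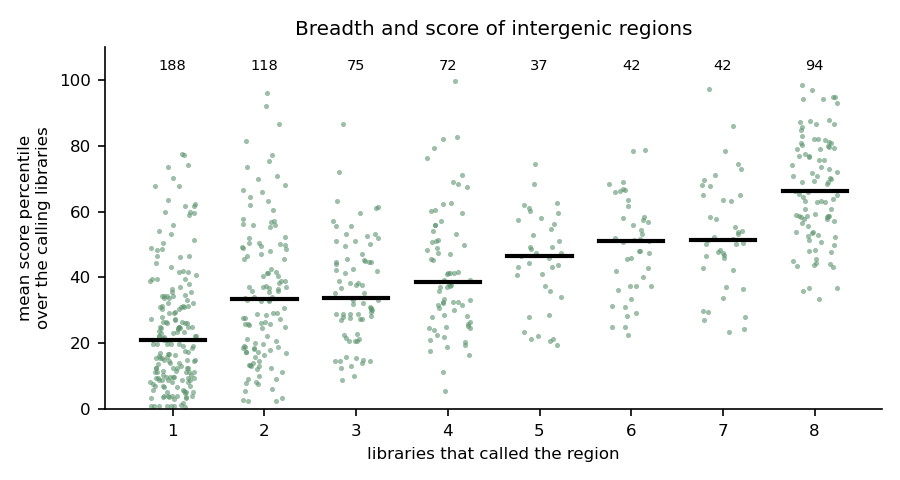
Mean score percentile of each region over the libraries that called it (vertical axis, 100 is the top peak of a list) by the number of those libraries (horizontal axis). Each point is 1 region, black lines are medians and the figures on top are the numbers of regions. The median is 20.9 at 1 library and 66.2 at 8, and single points near the top at 2, 4 and 7 libraries are regions of high score that other libraries did not call.

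The 2 biological replicates differed in which regions they called, and this difference touches every count below. All 4 libraries of replicate 2 and none of replicate 1 called 22 regions (3.29%), beside 4.09% of all merged regions. The reverse held for 9 regions (1.35%), beside 2.34%. For comparison, 12 regions (1.80%) were called in every treated library and in no untreated one, beside 1.13% of all merged regions. None was called in all 4 WT libraries and in no mutant library, where the share over all merged regions was 0%. The replicates also differed in peak width. The median intergenic peak was 565.5 to 617 bp wide in the 4 replicate 1 libraries and 338 to 394 bp in the 4 replicate 2 libraries. The list of WT 0 h replicate 1 ran to region number 1508 with 1372 peaks present, so 136 numbers were absent.

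Among regions called in all 8 libraries, the one with the highest mean percentile lay upstream of ERF1A (AT4G17500, symbol ERF-1), an ethylene-responsive transcription factor that activates defence genes. It spans chr4:9757126-9757622 in TAIR10, 1976 bp upstream of the TSS. Its score percentile was 99.0 and 99.1 in untreated WT, 97.6 and 99.8 in treated WT, 97.3 and 99.2 in the untreated mutant, and 97.4 and 99.0 in the treated mutant. All 8 values lay within 3 points of the top of their lists, and the groups overlapped.

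The second by this mean was 3770 bp upstream of AT5G43420, which encodes the RING-H2 finger protein ATL16 of a family of E3 ubiquitin ligases, at chr5:17447459-17448229. Its percentiles were 96.3 and 98.6 in untreated WT, 96.6 and 98.8 in treated WT, 95.3 and 98.7 in the untreated mutant, and 94.8 and 96.7 in the treated mutant. No group stood apart here either. RIN13, which encodes a protein that interacts with the resistance protein RPM1, had a region 1034 bp upstream at chr2:8763762-8764610. Its percentiles ran from 90.0, in mutant 0 h replicate 2, to 97.9, in mutant 2 h replicate 1. This region overlapped promoter peaks of other libraries, so it sits at the edge of the class.

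WRKY40, which encodes a WRKY repressor of defence genes and is one of the 3 genes mutated here, had its own intergenic region about 3 kb upstream (3144 bp from the TSS). The region is 4422 bp wide, chr1:30376620-30381041, because of 1 wide peak in mutant 2 h replicate 1 that the authors assigned to another gene, AT1G80831. The percentiles were 88.0 and 99.9 in untreated WT, 74.8 and 99.9 in treated WT, 93.6 and 99.9 in the untreated mutant, and 96.4 and 99.95 in the treated mutant. In mutant 2 h replicate 1 no peak assigned to WRKY40 lay in the region, so the 96.4 is that of the wide peak. The maxima of the region's peaks spanned 2485 bp. Every replicate 2 value was above every replicate 1 value, and neither time nor genotype separated them. The regions of the other 2 mutated genes were unlike this one. WRKY18 had a region 1056 bp upstream that overlapped promoter peaks, was called in 4 libraries and had a mean percentile of 19.4. WRKY33 was assigned no intergenic region.

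The region 1253 bp upstream of GID1C, which encodes a gibberellin receptor, had percentiles of 99.6 and 94.8 in untreated WT and 90.1 and 85.5 in treated WT. In the mutant the values were 99.1 and 93.7 at 0 h and 96.8 and 99.3 at 2 h. The treated WT values were the 2 lowest of the 8. The region 1029 bp upstream of STZ (ZAT10), a zinc finger repressor of stress responses, ranged from 86.8 to 98.6. It overlapped promoter peaks, and only 3 of the 8 libraries had an intergenic peak there. AT1G64405, a hypothetical protein gene with a region 1717 bp upstream, ranged from 84.2 to 99.6, and MLO12, of the family that conditions powdery mildew susceptibility, from 75.9 to 95.5. Among regions called in all 8 libraries, the other 4 of the 12 with the highest mean percentile lay by the F-box gene AT5G44220, the defensin-like gene LCR16 (downstream, at 1446 bp), the pseudogene AT1G56480 and the NAC-domain gene AT3G12910. Their mean percentiles were 87.8 ± 5.12, 87.4 ± 5.44, 87.2 ± 12.3 and 86.7 ± 5.64 (SD, n = 8 libraries of 4 groups). The regions of LCR16 and AT3G12910 overlapped transcript-end peaks, and 6 and 5 of the 8 libraries had an intergenic peak there.

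**Figure D3:**
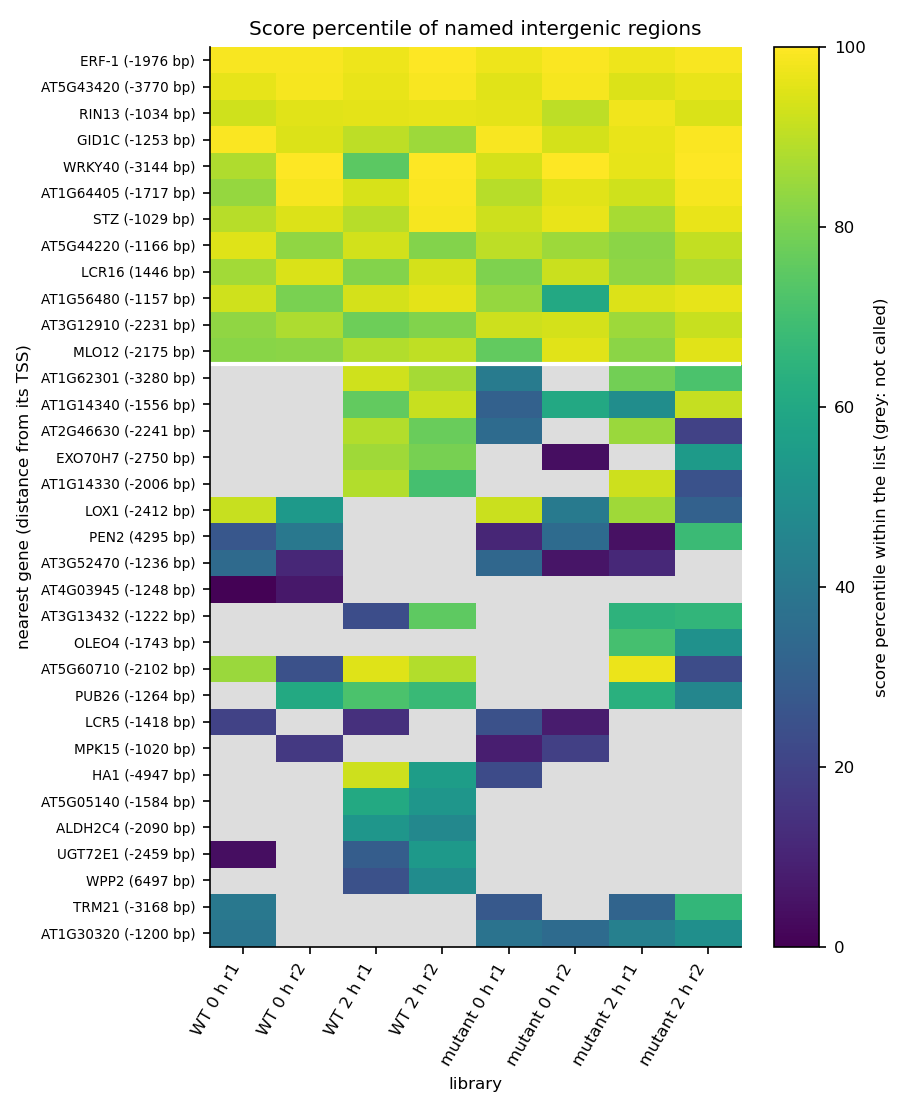
Score percentile (colour, 0 to 100) of named intergenic regions in each of the 8 libraries; grey means that the library did not call the region, and r1 and r2 are the replicates. The 12 rows above the white line are called in all 8 libraries, and 91 of their 96 values are above 80. Below it are the regions gained, lost or called in 1 genotype alone, labelled by nearest gene and distance from its TSS.

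Compared with promoter peaks of the same library, intergenic peaks had the lower median score in 6 of 8 libraries, by a small margin. The median percentile of intergenic peaks was lowest at 44.3, in mutant 0 h replicate 2, and highest at 52.5, in mutant 2 h replicate 1. For promoter peaks the medians ran from 49.5 to 52.3. The mean difference within a library was -2.82 points, and intergenic peaks were the higher in 2 of 8 libraries (exact two-sided sign-flip permutation p = 0.0625, adjusted p = 0.156 over 10 tests). By the same exact permutation test, among peaks above each list's median score the difference was -8.25 (p = 0.00781), among equal numbers of peaks -4.62 (p = 0.0391), and against transcript-end peaks -4.33 (p = 0.0469). Without WT 0 h replicate 1 the difference from promoter peaks was -3.45 (exact p = 0.0469), and without mutant 2 h replicate 1 it was -3.65 (p = 0.0313). These were the 2 libraries in which intergenic peaks were the higher. Leaving out any other library gave -2.97 to -2.35, and the smallest exact permutation p among those runs was 0.0938.

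The median intergenic peak was wider than the median promoter peak by a mean of 22.7 bp, in 5 of 8 libraries (exact permutation p = 0.141). It was the wider in every replicate 1 library. In replicate 2, intergenic against promoter medians were 358 against 358 bp in untreated WT and 394 against 387 bp in treated WT. In the mutant these replicate 2 medians were 338 against 359.5 bp at 0 h and 353 against 366 bp at 2 h. The other replicate of the same group called between 52.8% and 66.3% of a library's intergenic peaks, and between 52.4% and 66.2% of its promoter peaks. The mean difference of 1.77 percentage points was positive in 4 of 4 groups, and its exact permutation p of 0.12 is the smallest that 4 groups allow. Each group value is the mean of its 2 libraries. In replicate 1 at 2 h the intergenic share was the lower, at 58.0% against 60.1% in WT and 52.8% against 57.4% in the mutant. In every other library it was the higher.

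The flg22 lists held more intergenic peaks than the lists at 0 h, and by a larger factor than for promoters. WT libraries had 184 and 199 intergenic peaks at 0 h and 369 and 361 at 2 h, in replicate order. Mutant libraries had 208 and 240 at 0 h and 345 and 318 at 2 h. Every library at 2 h was above every library at 0 h. The means were 207.8 ± 23.7 at 0 h and 348.2 ± 22.5 at 2 h (SD, n = 4). The libraries at 2 h held 140.5 more peaks on average (exact permutation test, two-sided, p = 0.0286, adjusted p = 0.0952). The first p is the smallest that 4 libraries against 4 can give, and the second is above 0.05. Over the 4 same-numbered pairs it had a p of 0.12, the smallest that 4 pairs allow.

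Within pairs, the 2 h list held 2.01 and 1.81 times as many intergenic peaks in WT and 1.66 and 1.33 times as many in the mutant. The same ratios for promoter peaks were 1.32, 1.295, 1.35 and 1.25, and for transcript-end peaks 1.54, 1.66, 1.497 and 1.41. So in each of the 4 pairs the intergenic class had the larger ratio than the promoter class, and in mutant replicate 2 the transcript-end class exceeded both. The log2 ratio of intergenic to promoter peaks was 0.37 higher at 2 h (exact permutation p = 0.0286, adjusted p = 0.0952, paired p = 0.12), a test added after seeing the data. Both WT ratios were above both mutant ratios, and no exact test of 2 pairs against 2 can reach p = 0.05.

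Length of list moved with this result. When each list was reduced to its 1372 highest peaks, the length of the shortest, the mean was 186.8 ± 6.19 intergenic peaks at 0 h and 221.2 ± 27.1 at 2 h (SD, n = 4, exact permutation p = 0.143). The 8 counts were then 184 and 184 in untreated WT, 246 and 224 in treated WT, 196 and 183 in the untreated mutant, and 232 and 183 in the treated mutant. Mutant 2 h replicate 2 lay among the 0 h libraries. The part that list length plays in the difference between times was not tested further.

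**Figure D4:**
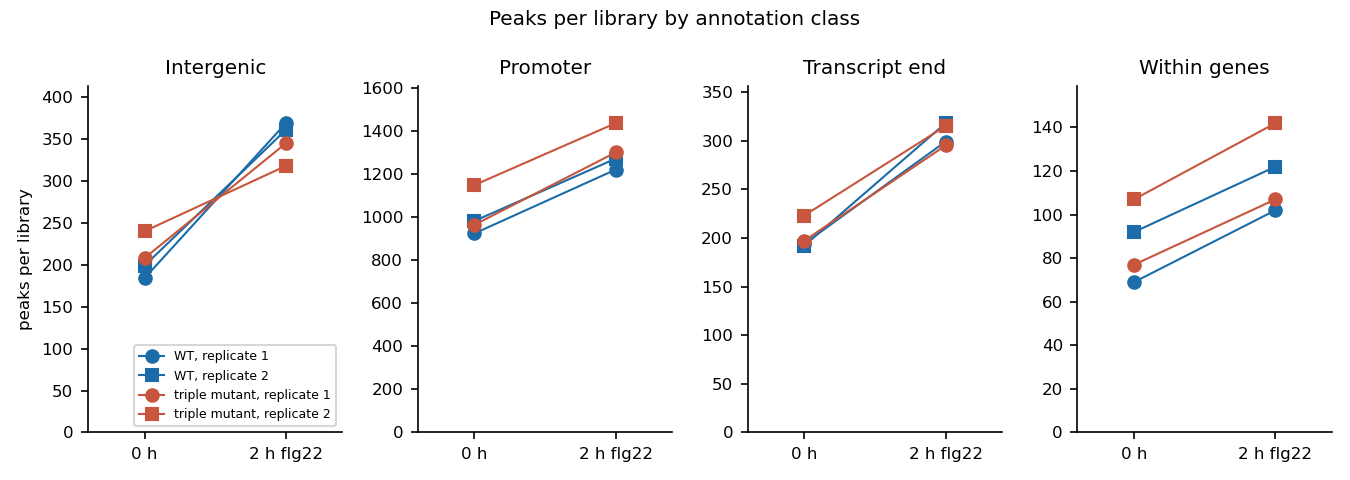
Peaks per library (vertical axes, each from 0) at 0 h and 2 h of flg22 for 4 annotation classes; lines join libraries of the same genotype and replicate number, blue for WT and red for the triple mutant, circles for replicate 1 and squares for replicate 2. Intergenic peaks run from 184 to 240 at 0 h and from 318 to 369 at 2 h, and all lines go up in every class.

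The additional peaks at 2 h lay at all distances. Between 1000 and 1500 bp upstream the mean count was 72.5 ± 15.3 at 0 h and 115.8 ± 6.90 at 2 h (SD, n = 4), a ratio of 1.60. Between 2000 and 3000 bp upstream it was 36.0 ± 2.45 and 64.5 ± 7.05, a ratio of 1.79. Beyond 5000 bp upstream it was 8.00 ± 0.816 and 12.2 ± 1.71, a ratio of 1.53. At 3000 bp or more downstream it was 11.8 ± 1.71 and 21.2 ± 3.30, a ratio of 1.81. In all 7 distance classes the 2 times did not overlap, each with the smallest exact permutation p of 0.0286 (adjusted p = 0.0286 over 7 classes), and the classes come from the same libraries. Over the 4 same-numbered pairs each class was higher at 2 h in 4 of 4 and its exact p was 0.12, the smallest possible there, so none was under 0.05 as pairs.

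The upstream share of the peaks was 89.1% ± 1.27 at 0 h and 88.3% ± 0.278 at 2 h (SD, n = 4). The difference of -0.75 percentage points had an exact permutation p of 0.314, and without WT 0 h replicate 2 it was -1.29 (p = 0.0286). The median upstream distance was 1719 ± 86.4 bp at 0 h and 1729 ± 44.5 bp at 2 h (exact permutation p = 0.886).

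Most intergenic peaks found at 0 h overlapped a peak in the 2 h list of the same replicate number. In the pairs of WT, 86.4% and 87.9% of intergenic peaks at 0 h overlapped a peak at 2 h, and in the mutant 88.9% and 85.4%. In the other direction, 42.3% and 48.2% of the WT peaks at 2 h were already called at 0 h, and 52.5% and 64.5% of those in the mutant. For promoter peaks at 0 h the share also called at 2 h was 72.5% and 76.4% in WT and 84.0% and 88.0% in the mutant. For promoter peaks at 2 h the share already called at 0 h was 55.3% and 59.1% in WT and 62.0% and 70.4% in the mutant. The 2 h lists were longer.

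Region by region, 65 of the 562 regions called in either WT group appeared with flg22 in both replicates, that is, both treated libraries called them and neither untreated one did (11.6%). Over all merged regions that share was 7.89%. The opposite pattern held for 4 regions (0.712%), beside 2.11% of all merged regions. In the mutant, 25 of 549 regions were gained (4.55%, beside 3.39%) and 2 were lost (0.364%, beside 0.55%). Single pairs gave far larger numbers, 221 and 186 gained in WT and 170 and 119 in the mutant, of which the rule keeps those seen in both replicates. These single-pair numbers are given without a share over all merged regions, and every annotation class had more peaks at 2 h. Against lists of equal numbers of peaks, 25 of 426 were gained in WT (5.87%, beside 4.01%) and 10 were lost (2.35%, beside 4.77%). There 7 of 391 were gained in the mutant (1.79%, beside 1.22%) and 6 were lost (1.53%, beside 2.39%).

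The regions gained in WT were of lower score than the other regions that both treated libraries called. Their median percentile at 2 h was 38.5, against 65.6 for those other 181 regions, which at least 1 untreated library also called. In the mutant these medians were 33.2 and 62.6, the latter over 186 regions. Of the 65 regions gained in WT, 61 were upstream and 4 downstream. In the mutant at 2 h, both libraries called 18 of them, 1 library called 33 and none called 14. At 0 h, both mutant libraries called 1 and neither called 49.

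The gained regions of highest score in WT lay by genes that are little described. At chr1:23023430-23024501, 3280 bp upstream of the hypothetical gene AT1G62301, the percentiles were 93.0 and 86.4 in treated WT and 78.8 and 71.7 in the treated mutant. At 0 h, mutant replicate 1 alone called it, at 41.7. The region 2241 bp upstream of AT2G46630 had 88.5 and 77.3 in treated WT, 85.0 and 19.8 in the treated mutant, and 34.8 in mutant 0 h replicate 1. EXO70H7, which encodes a subunit of the exocyst that tethers secretory vesicles, had a region 2750 bp upstream with 85.6 and 79.6 in treated WT. In the mutant it was called at 3.87 at 0 h and 54.7 at 2 h, in replicate 2 at both times. It overlapped transcript-end peaks, and 2 of the 4 libraries that called it had an intergenic peak there. These 3 were thus absent from both WT lists at 0 h and present in at least 1 mutant library at 2 h.

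A run of 3 regions lay between the F-box gene AT1G14330, which encodes the kelch-repeat protein SKIP11, and AT1G14340, which encodes an RNA recognition motif protein. The gaps between them were 175 and 150 bp. The region assigned to AT1G14330 had percentiles of 88.3 and 70.6 in treated WT, 92.3 and 25.2 in the treated mutant, and no call at 0 h. The next, 2314 bp upstream of AT1G14340, was called in 7 libraries and by WT at both times, with a mean percentile of 42.4. The last, 1556 bp upstream of AT1G14340, had 75.9 and 91.6 in treated WT and 49.1 and 91.0 in the treated mutant. It was also called in the untreated mutant, at 31.1 and 60.5, and not in untreated WT.

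The 12 regions found in every treated and no untreated library included that of AT1G14330, with a mean percentile of 69.1. Those of higher mean percentile after it lay by AT3G13432, a hypothetical gene (57.2), PMT5, a polyol transporter gene (54.1), and BGLU27, a beta-glucosidase gene (53.1). Those of AT5G21280, UTR2, AT4G12423, AT4G20830, TRY and AT1G04360 ran from 45.6 down to 25.4. The lowest were those of PSK4, which encodes a precursor of the peptide hormone phytosulfokine (24.8), and LRR XI-23, a leucine-rich repeat receptor kinase gene (18.9). None of the 668 regions showed the reverse, beside 0.129% of all merged regions.

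The 4 regions lost in WT had moderate to low scores, other than that of LOX1. LOX1 encodes a lipoxygenase, and its region lay 2412 bp upstream at chr1:20522973-20523638. Its percentiles were 91.6 and 53.7 in untreated WT, 91.8 and 41.3 in the untreated mutant, and 85.5 and 31.0 in the treated mutant. Neither WT library called it at 2 h, so it was called in 6 libraries, all but those of WT at 2 h. PEN2, which encodes an atypical myrosinase of indole glucosinolate breakdown in defence, showed the same pattern at 4295 bp downstream, chr2:18368767-18369264. The percentiles there were 27.1 and 40.1 in untreated WT, 10.8 and 35.1 in the untreated mutant, and 4.39 and 68.3 in the treated mutant. The other 2 were the regions of AT3G52470, at 34.7 and 11.3 in untreated WT, and AT4G03945, at 0.584 and 6.35. The last 2 values stood near the bottom of their lists.

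In the mutant, the gained regions of highest score were those of AT3G13432, OLEO4, AT5G60710, AT1G14330 and PUB26. OLEO4, which encodes an oleosin of seed oil bodies, had a region 1743 bp upstream that only the 2 mutant libraries at 2 h called, at 70.5 and 50.5. AT5G60710, a zinc finger protein gene, had percentiles of 84.9 and 24.7 in untreated WT, 95.2 and 88.5 in treated WT, and 97.2 and 23.1 in the treated mutant. No mutant library called it at 0 h, so it was a gain in the mutant and no change of call in WT. It overlapped transcript-end peaks, and 2 of the 6 libraries that called it had an intergenic peak there. PUB26, which encodes a U-box E3 ubiquitin ligase, had 71.5 and 67.7 in treated WT and 63.6 and 45.8 in the treated mutant. WT 0 h replicate 2 also called it, at 60.9. Both regions lost in the mutant, those of LCR5 and MPK15, had no percentile above 24.9.

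The number of intergenic peaks overlapped between the genotypes. WT libraries had 184 to 369 and mutant libraries 208 to 345, and the mutant mean was lower by 0.5 peaks (exact permutation p = 1.00). Regions that separated the genotypes were few. At 2 h, 17 of 638 regions (2.67%, beside 1.7% of all merged regions) were found in WT alone, in both of its libraries. The reverse held for 9 regions (1.41%, beside 1.61%). At 0 h, 4 of 379 regions (1.06%) were called in WT alone and 4 in the mutant alone, beside 0.763% and 1.57%.

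The highest of the regions called in WT alone at 2 h lay 4947 bp upstream of HA1, which encodes a plasma membrane proton pump, with percentiles of 92.5 and 55.5. Mutant 0 h replicate 1 also called it, at 23.0. The regions of AT5G05140, a transcription elongation factor gene (60.8 and 52.6), and of ALDH2C4, an aldehyde dehydrogenase gene of phenolic metabolism (52.6 and 46.7), were called in the 2 WT libraries at 2 h and in no other. So was that of WPP2, 6497 bp downstream (24.7 and 48.7). UGT72E1, which encodes a glucosyltransferase of coniferyl alcohol, had 29.3 and 53.6, and WT 0 h replicate 1 called it at 3.72. Among regions called in the mutant alone at 2 h, those of OLEO4, LOX1 and PEN2 are given above, and those of TRM21 (32.1 and 66.4) and AT1G30320, a remorin gene (43.7 and 49.8), were also called in at least 1 library at 0 h. Over both times, AT1G70770 alone had a region called in all 4 mutant libraries and in no WT library, at 33.5, 29.9, 8.18 and 55.3 (0.150% of regions, beside 0.0515%). It was picked out of 668 regions for this pattern and was not tested. The comparisons at 1 time are of 2 libraries against 2, where no exact test can reach 0.05.

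Read by the nearest genes, the WRKY family had the largest share of genes with an intergenic region among the 11 lists examined, though not by the stricter count. Of 72 WRKY genes, 18 (25%) had at least 1 intergenic region, while 562 of 27444 nuclear protein-coding genes did (2.05%). With the stricter count of regions called in both libraries of a group, 9 WRKY genes (12.5%) had one, against 0.973% of all protein-coding genes and 3 of the 23 stress-associated zinc finger, MYB and NAC genes (13.0%). The number of WRKY genes with such a region was 4 in untreated WT, 8 in treated WT, 4 in the untreated mutant and 7 in the treated mutant. Over all protein-coding genes these numbers were 119, 218, 138 and 187, so 2 h was above 0 h there too. The counts share genes, and no test of the list was run.

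WRKY15, WRKY48, WRKY17 and WRKY40 had a region called in all 8 libraries. That of WRKY17 overlapped promoter peaks, and at WRKY40 the call in mutant 2 h replicate 1 was the wide peak described above. The region 2759 bp upstream of WRKY15 had percentiles of 79.9 and 93.4 in untreated WT, 75.9 and 97.3 in treated WT, 80.1 and 94.6 in the untreated mutant, and 71.1 and 93.1 in the treated mutant. As at WRKY40, each replicate 2 value exceeded each replicate 1 value. A second WRKY15 region, 1195 bp upstream and overlapping promoter peaks, had a mean percentile of 76.9 ± 13.7 (SD, n = 8 libraries). WRKY53, which is known for its part in leaf senescence, had a region 1978 bp upstream called in 6 libraries. Its percentiles were 80.7 in WT 0 h replicate 2, 77.7 and 91.1 in treated WT, 31.4 in mutant 0 h replicate 2, and 51.8 and 38.0 in the treated mutant. Both mutant values at 2 h were below both WT values. WRKY75 was among the WT gains, at percentiles of 2.49 and 69.2 in treated WT, and 1 treated mutant library called it at 34.3.

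Genes of ethylene synthesis and response had regions in 5 of 30 cases (16.7%), and 3 of them had one in every library. These were ERF1A and a pair of genes, ACS6 and ACS8, that encode ACC synthases, which make the direct precursor of ethylene. The region 1785 bp upstream of ACS6, chr4:6861790-6862785, had percentiles of 95.4 and 38.9 in untreated WT, 99.9 and 88.5 in treated WT, 96.6 and 42.4 in the untreated mutant, and 98.9 and 72.5 in the treated mutant. The 4 replicate 1 values were above the 4 of replicate 2. The ACS8 region, 3557 bp upstream, had 10.2 and 32.5 in untreated WT and 66.5 and 89.5 in treated WT. In the mutant it had 2.08 and 32.6 at 0 h and 47.1 and 12.5 at 2 h, a wide spread in which untreated and treated values overlapped.

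Of 28 genes listed under jasmonate synthesis and response, 5 (17.9%) had a region. They included LOX1, LOX4, which encodes a lipoxygenase of jasmonate synthesis, and JAZ6, which encodes a repressor of jasmonate signalling. The LOX4 region, 2001 bp upstream, had 43.8 in WT 0 h replicate 1, 95.9 and 82.3 in treated WT, 62.2 and 15.9 in the untreated mutant, and 92.5 and 49.8 in the treated mutant. Untreated and treated values overlapped. The JAZ6 region, 1189 bp upstream, was among the WT gains at 73.5 and 37.0, and mutant 2 h replicate 1 called it at 42.7. Of 26 genes listed under salicylic acid synthesis and response, 4 (15.4%) had regions. Their mean percentiles were 39.6 for EDS16 (ICS1, called in 1 library), 27.4 for DMR6, 21.3 for FMO1 and 5.50 for ALD1 (1 library). Of 27 genes listed under camalexin and indole glucosinolate synthesis, 5 (18.5%) had a region, among them PEN2, whose enzyme acts in breakdown. The CYP79B2 region at 1028 bp, by the gene for the first enzyme from tryptophan in both routes, was called only in the treated mutant, at 8.18 and 58.1. This region overlapped promoter peaks, and a second one at 2375 bp was called only in WT 2 h replicate 1, at 56.0.

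Of 23 stress-associated zinc finger, MYB and NAC genes, 4 (17.4%) had regions, those of STZ, MYB15, MYB73 and SZF1. Of 51 genes of pattern perception and early signalling, 2 (3.92%) had one. PUB23, which encodes a U-box ligase that dampens responses to flg22, had a region 2375 bp upstream with 43.1 and 68.5 in replicate 1 at 0 h, in WT and mutant. At 2 h it had 95.7 and 67.7 in WT and 89.4 and 33.2 in the mutant. Neither replicate 2 library at 0 h called it. The 1 VQ-motif gene with a region, of 10 found, was PDE337, called at 30.3 and 37.0 in treated WT and not in untreated WT. None of 47 genes for cysteine-rich and wall-associated kinases had an intergenic region, nor had any of 36 photosynthesis genes or 18 housekeeping genes.

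Several genes had more than 1 intergenic region, and HA2, which encodes the major plasma membrane proton pump beside HA1, had the most with 4. The one 5891 bp upstream, chr4:14780397-14782451, was called in all 8 libraries. Its percentiles were 86.3 and 94.5 in untreated WT, 57.3 and 93.1 in treated WT, 59.4 and 97.5 in the untreated mutant, and 63.1 and 98.5 in the treated mutant. Every replicate 2 value was above every replicate 1 value. The region 1808 bp upstream was called at 56.7 and 64.4 in treated WT, not in untreated WT, and in replicate 2 of the mutant at 0 h (12.9) and at 2 h (14.0). The regions 1258 and 3759 bp upstream were each called in 1 WT library at 2 h.

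HA1 had 3 regions, at 6627, 4947 and 1634 bp upstream, none of them called in more than 3 libraries. AT3G52870, which encodes an IQ calmodulin-binding protein, had 3 at mean percentiles of 44.5, 40.7 and 12.9, and AT5G60680 had 3, of which 2 lay downstream. WRKY28 also had 3, none of them called in more than 5 libraries. MYB15, an activator of lignin synthesis in immunity, had regions at 1261 and 4103 bp upstream beside promoter peaks in 7 libraries. The nearer region had 28.2 and 19.7 in untreated WT and 62.9 and 84.8 in treated WT. In the mutant it was called once at each time, at 61.6 in replicate 2 at 0 h and at 30.3 in replicate 1 at 2 h. The farther one was called at 39.6 and 28.0 in treated WT and at 24.9 in mutant 2 h replicate 1, and in no library at 0 h.

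The nitrate transporter gene NRT1:2 had a pair of regions 1512 bp apart that were called in different genotypes at 0 h. The one 2444 bp upstream was called in WT at 24.1 and 11.3 at 0 h and at 38.6 and 20.8 at 2 h, and in mutant 2 h replicate 2 at 45.8. The one 4496 bp upstream was called only in the mutant, at 39.6 and 35.1 at 0 h and at 7.03 in replicate 2 at 2 h. All these values lay below the median of their lists.

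**Figure D5:**
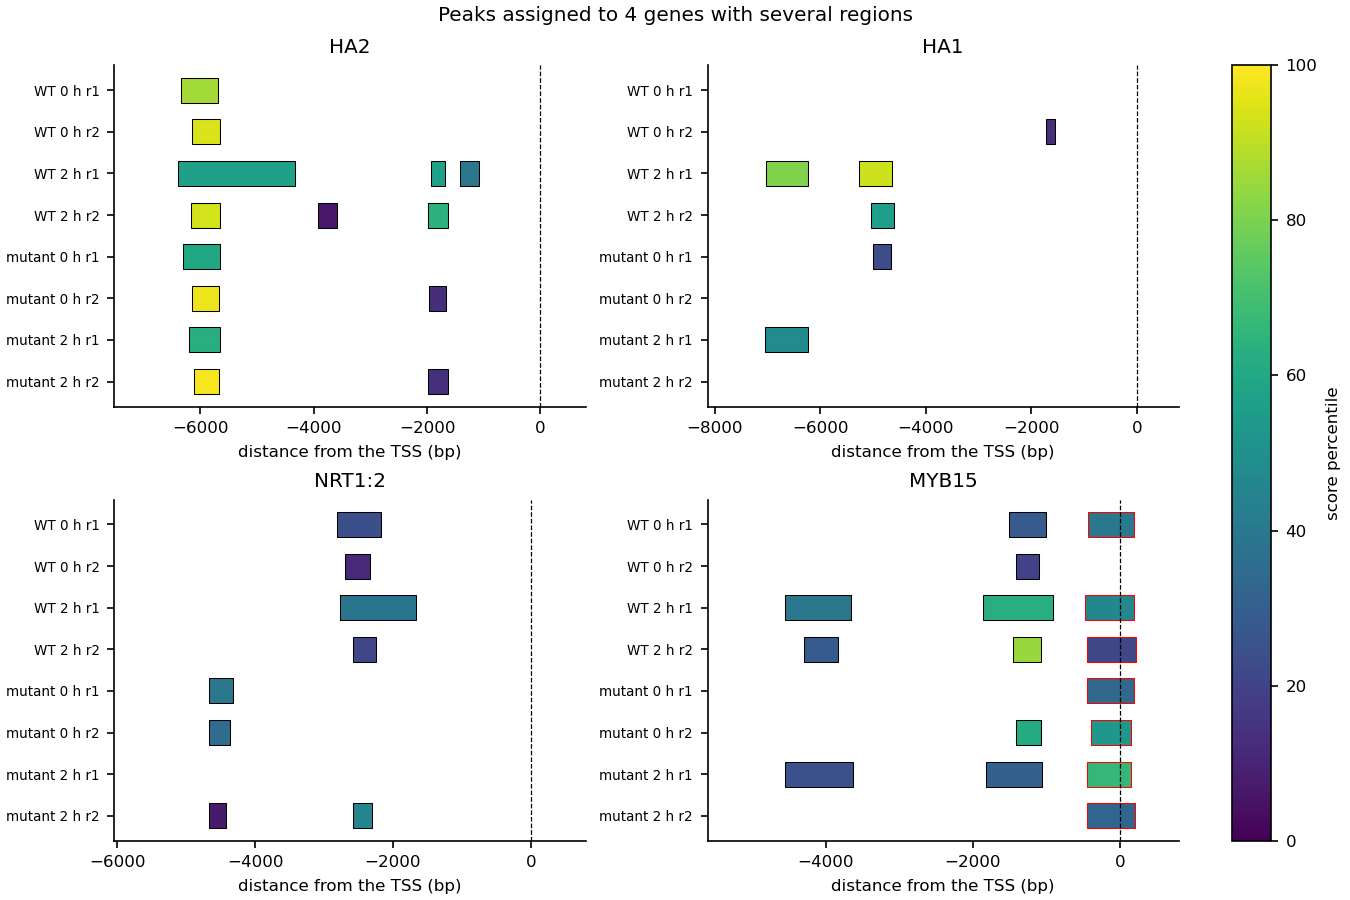
Peaks assigned to HA2, HA1, NRT1:2 and MYB15 in each library (rows; r1 and r2 are the replicates), drawn to scale by distance from the TSS in bp (horizontal axis, below 0 upstream, dashed line at the TSS) and coloured by score percentile. Black outlines are intergenic peaks and red outlines promoter peaks. The HA2 region at -5891 is in all 8 libraries, and the farther NRT1:2 region is in mutant libraries alone.

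Most neighbouring regions lay more than 2000 bp apart. Among 663 neighbouring pairs the median gap was 78870 bp, and 76 pairs lay within 2000 bp, of which 53 shared the nearest gene. The farthest upstream regions called in all 8 libraries were those of HA2, of RD21A, a cysteine protease gene (5667 bp), of NCED3, which encodes a key enzyme of abscisic acid synthesis (5381 bp), and of WRKY48 (4874 bp). The NCED3 region had 52.6 and 35.1 in untreated WT, 40.4 and 62.6 in treated WT, 83.2 and 83.4 in the untreated mutant, and 43.7 and 86.4 in the treated mutant. Both mutant values at 0 h were above all 4 WT values. The WRKY48 region had 77.3 and 91.7 in untreated WT, 80.1 and 98.2 in treated WT, 73.9 and 92.1 in the untreated mutant, and 73.6 and 92.3 in the treated mutant, again with replicate 2 the higher throughout. It was 42 bp from a region that the authors assigned to PFD3, a prefoldin subunit gene, at 3611 bp downstream.

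Beside that of PFD3, 3 regions were the farthest downstream among those called in all 8 libraries. The region of AT4G30350, annotated as a heat shock-related protein gene, was at 4663 bp with a mean percentile of 69.3 ± 25.7. That of AT4G23740, a putative inactive receptor kinase gene, was at 4217 bp with 44.4 ± 18.6. That of AT1G24530, a WD-40 repeat gene, was at 2698 bp with 73.5 ± 27.5 (SD, n = 8 libraries of 4 groups). The spread of these 3 was wide, and the lowest value of the first and of the last, 18.2 and 15.9, came from a replicate 2 library at 0 h.

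Some genes had both an intergenic region and a promoter peak. Of the 606 genes with an intergenic region, 147 (24.3%) also had a promoter peak in any library. Among protein-coding genes alone this was 144 of 562 (25.6%), beside 8.61% of all 27444. Of the 668 regions, 49 overlapped a promoter peak. In these pooled shares, 1 site at the 1000 bp limit can thus count as both, and the size of that part was not tested. Within a library the share of intergenic peaks whose gene also had a promoter peak was 7.07% and 8.54% in untreated WT and 12.5% and 15.5% in treated WT. In the mutant it was 8.17% and 10.4% at 0 h and 12.2% and 15.7% at 2 h. The means of 8.55% ± 1.39 at 0 h and 14.0% ± 1.91 at 2 h (SD, n = 4) did not overlap between times (exact permutation p = 0.0286, adjusted p = 0.0952, paired p = 0.12), in a test added after seeing the data. With equal numbers of peaks they were 7.89% ± 0.924 and 9.94% ± 1.63 (exact permutation p = 0.0857). The share of all protein-coding genes with a promoter peak was also higher at 2 h in each pair. It was 3.21% and 3.43% in untreated WT and 4.21% and 4.34% in treated WT. In the mutant this background was 3.35% and 3.98% at 0 h and 4.53% and 4.94% at 2 h. The part it plays in the difference between times was not tested.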

How the data were processed

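The 8 lists of peaks from anti-WRKY immunoprecipitations were used as deposited, 1 per library. Per the labels' protocols, DNA went through linear amplification before library construction, and input DNA was the negative control for calling; the 8 input libraries were not analysed here. Per the submitters' processing notes, the build was TAIR10 and the tools included HOMER, Bowtie2 2.0.5 and SAMtools 0.1.18. The peak caller was not given in the sources used here. The authors deposited a ChIP score per peak, whose scale is not given, so that score was used only as a percentile within its list. The depth behind each peak is unknown, and shared thresholds decide which sites enter a list.

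Intergenic rows were merged at 1 bp overlap (pandas 2.3.3, SciPy 1.17.1). Names and biotypes came from RefSeq's gene table for TAIR10.1, which held 603 of the 606 genes, and no coordinates were taken from it. Tests were exact permutation tests over libraries, two-sided, with Benjamini-Hochberg adjustment over 10 tests, checked on simulated data. A region was gained or lost where both libraries called it in one group and neither did in the other. Same-numbered libraries were treated as pairs, since the series describes 4 conditions in each biological replicate. Differences between replicates in which regions were called correlated at 0.32 to 0.459 between every pair of groups.

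Named regions were the 12 of highest mean percentile among those called in all 8 libraries, 5 per comparison and direction, the 4 farthest upstream and the 4 farthest downstream, up to 5 per gene list and the 4 genes with most regions. WRKY28, with 3 regions, tied with HA1, AT3G52870 and AT5G60680 and was not among those 4. WRKY18, WRKY33, WRKY75, MYB73, the regions present in all 4 libraries of one time, and those of the replicate comparison were chosen after their values were seen. The regions and lists were chosen with earlier results of these data known. Of 418 list symbols, 369 were found. Alternatives were equal list lengths, peaks above the median score, other overlap rules, leaving out each library and the replicate block.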

Additional observations from a re-analysis of the deposited data

How the results depend on the processing

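With the replicate block, the difference of 140.5 intergenic peaks between times had an exact permutation p of 0.12, and so had the log2 ratio of intergenic to promoter peaks, the share with a promoter peak of the same gene and the 7 distance classes. The block changed no other tested call. With equal numbers of peaks it was 34.5 (exact permutation p = 0.143), and leaving out each library gave 132.6 to 151.2 (exact permutation p = 0.0286 in each). The genotype difference of -0.5 peaks became 1.00 within 5000 bp of the TSS and 29.8, 27.1, 22.8 and 12.1 without WT 2 h replicate 1, WT 2 h replicate 2, mutant 0 h replicate 1 and mutant 0 h replicate 2 (range -31.9 to 29.8). The median distance of 10.1 bp became -51.4 above the median score and -14.8, -14.1 and -5.08 without WT 0 h replicate 2, mutant 0 h replicate 2 and mutant 2 h replicate 1 (range -14.8 to 40.5). None of these had p under 0.05.

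The percentile difference of intergenic from promoter peaks was -8.25 above the median score, -4.62 at equal numbers, -4.33 against transcript ends and -3.65 to -2.35 leaving out a library. The width difference was 42.5 bp above the median score (exact p = 0.0234) and 16.6 to 29.0 leaving out a library. The share called by the other replicate differed by -0.711 above the median score (exact p = 0.75) and by 0.313 to 3.22 leaving out a library. The upstream share differed by -1.29 to -0.311 between times and 0.127 to 1.02 between genotypes.

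Above the median score, the count called in all 8 libraries was 26, gains were 35 in WT and 15 in the mutant, and regions of 1 genotype were 11 (WT, 2 h), 4 (mutant, 2 h) and 1 (WT, 0 h). At equal numbers, the count in all 8 was 61, gains were 25 and 7, and losses 10 and 6, so the excess of gains over losses in WT shrank from 65 against 4 to 25 against 10. By same-numbered pairs, under the replicate block, the mean counts were 203.5 gained and 25 lost in WT, 144.5 gained and 30 lost in the mutant, 107.5 and 78 in WT and mutant alone at 2 h, and 34.5 and 69 at 0 h. Leaving out a library gave 95 to 109 called in all, 96 to 188 gained and 10 to 17 lost in WT, 48 to 143 gained and 7 to 27 lost in the mutant, 40 to 74 and 21 to 60 in WT and mutant alone at 2 h, and 12 to 27 and 18 to 51 at 0 h. Counts by pair or without a library are larger by construction, since fewer libraries must meet the rule. They are given without a share over all merged regions. For the other values the cause was not tested.

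Counting intergenic rows alone, cutting peaks to 150 bp and a stricter overlap kept every count within 1.5 times of its value, as did leaving out peaks over 2000 bp and merging all peaks first, both chosen after seeing the data. The planned W-box comparison was not run, because no genome was used. With 2 libraries a group, calls say whether a site passed a threshold and not how strongly it was bound.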

Other observations

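Some intergenic regions had very high scores in 1 replicate and no call in the other. These were chosen after their values were seen. Of the 18 regions with a mean percentile of at least 86.6, the lowest of the 12 named above, 6 were called in fewer than 8 libraries. The one 4498 bp downstream of AT2G37220, a ribonucleoprotein gene, at chr2:15631727-15632122, had percentiles of 99.5, 99.5, 99.7 and 99.7 in the replicate 2 libraries of WT at 0 h, WT at 2 h, the mutant at 0 h and the mutant at 2 h. No replicate 1 library called it. Those of AAP1, an amino acid permease gene (92.5 and 91.5), and AT5G57710, annotated as heat shock protein-like (96.2 and 95.8), were called only in replicate 1 at 2 h. Each was called once in WT and once in the mutant. That of TBP1, a telomere repeat-binding protein gene, was called only in replicate 2 at 2 h, at 88.9 in WT and 84.6 in the mutant. Of the 668 regions, 186 were called in replicate 1 libraries alone and 163 in replicate 2 libraries alone, of which 91 and 70 were called in at least 2 libraries. The rest were called in 1 library and so fall in 1 replicate by construction. These counts are given without a share over all merged regions. By the stricter rule above, of all 4 libraries of 1 replicate and none of the other, the share was higher over all merged regions.

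Regions by 2 genes of the phytosulfokine peptide hormone were among the WT gains, again chosen after the values were seen. The region of PSK4, for the precursor, lay 1077 bp upstream, and that of PSKR1, for the receptor kinase, lay 2043 bp upstream. The mean percentile over the 2 WT libraries at 2 h was 33.8 for PSK4 and 18.2 for PSKR1. Both mutant libraries at 2 h called the PSK4 region and neither called the PSKR1 region.

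Of the other WT gains, 4 are given as examples that were picked after their values were seen, and they stand for no group of genes. Over the 2 WT libraries at 2 h the mean percentile was 69.2 for the region 2753 bp upstream of RR3, which encodes a response regulator of cytokinin signalling. It was 57.2 for the region 1308 bp upstream of ATAF2, a NAC transcription factor gene, and 55.3 for the region 1397 bp upstream of EBF2, whose F-box protein targets the ethylene factor EIN3. It was 41.7 for the region 1278 bp upstream of the cell wall gene EXT4, which encodes an extensin. None of these 4 was called in untreated WT, which is how they were chosen.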
